A study of Mus musculus with 6 samples.

Results

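Of the 47794 cells in 6 single-cell libraries from mouse pancreatic tumours, 482 passed a fibroblast gate, and 215 of these were inflammatory and universal-type fibroblasts. The gate asked for at least 10 UMIs (unique molecular identifiers, each counted as 1 captured transcript) of Col1a1, Col1a2, Col3a1 and Dcn together, no UMI of Ptprc, Pecam1 or Cdh5, and at most 1 UMI each of Epcam with Krt19 and of Rgs5. Gated cells were kept as members where the summed UMIs of Dpt, Clec3b, Has1, Pi16, Col14a1 and Ly6c1 were greater than those of the contractile genes Acta2, Tagln and Myl9. The remaining 267 gated cells, called the other gated fibroblasts below, served as the comparison.

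Universal-type fibroblasts, marked by Pi16 and Dpt, lie around vessels and in the loose connective tissue of most organs and are regarded as a source from which specialised fibroblasts arise. In pancreatic tumours, inflammatory fibroblasts make cytokines, chemokines, complement proteins and hyaluronan under IL-1 and JAK/STAT signals, whereas myofibroblastic ones lie next to tumour cells and make contractile proteins and dense collagen under TGF-beta. VSIG4 is a complement receptor of tissue macrophages that binds fragments of C3.

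All 6 mice were C57BL/6J with the genotype given as wild-type, and all carried a tumour of KPC cells, a mouse pancreatic cancer line, placed in the pancreas. In 3 of them the treatment was IgG and in 3 it was #44-anti-mVSIG4 antibody, and every tumour was collected 11 days after inoculation, with 1 mouse per library. The labels name no antibody dose or schedule.

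The libraries held 26606234 to 47221033 UMIs in 6518 to 9566 cells, each with at least 1000 UMIs. They differed in the share of nucleus-like cells, those with over 15% of UMIs in genes spanning more than 100 kb: 1.06, 21.9 and 48.6% in IgG 1 to 3 and 0.651, 1.47 and 9.74% in anti-VSIG4 1 to 3. Members numbered 91, 31 and 36 in IgG 1 to 3 and 14, 39 and 4 in anti-VSIG4 1 to 3. Values from anti-VSIG4 3 therefore rest on 4 cells, 1 of which carried 88 of its 10172 UMIs in genes of mesothelium, the lining of the abdominal cavity, and the main results on the treatment are also given without that library. Members had a median of 4362 UMIs per cell and the other gated fibroblasts 3654. Nucleus-like cells made up 31 of the 215 members and 40 of the 267 others. The nucleus-like members were all in IgG libraries, 7, 13 and 11 in IgG 1 to 3 and 0 in each anti-VSIG4 library. Among members this trait therefore goes with the treatment.

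The genes that chose the members are given as a description only, and their levels as CPM (UMIs per 1000000 UMIs summed over the cells of a kind in a library). A UMI of Has1, a hyaluronan synthase, was present in 64.2% of members and 20.2% of other gated fibroblasts. Dpt, which encodes the matrix protein dermatopontin, was detected in 60.9% and 13.1%, and Pi16, a secreted peptidase inhibitor, in 53.5% and 11.6%. Ly6c1, a surface glycoprotein, was detected in 48.8% and 10.5%, and Col14a1, a collagen that sits on fibrils, in 37.7% and 8.61%. The sharpest split was that of Clec3b, which encodes tetranectin, at 43.7% and 1.12%. In 9036 macrophages (cells with 10 or more UMIs of C1q genes, with median depths of 3923 to 9452 UMIs per library), which should lack these genes, the shares ran from 0.509% for Clec3b to 5.79% for Pi16. Shares of the other gated fibroblasts for Col14a1, at 8.61%, thus lay close to this background of 5.72%.

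The members were not of one kind by these 6 genes. A UMI of only 1 of the 6 was present in 62 members, while 33 carried all 6. The rule was passed by exactly 1 UMI in 27 members, which had a median of 2883 UMIs per cell, and by 2 or more in 188. Just outside it were 14 cells tied above 0, 33 cells that fell short by 1 UMI, and 46 cells with no UMI of any of the 9 genes. No contractile UMI was seen in 126 members.

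**Figure D1:**
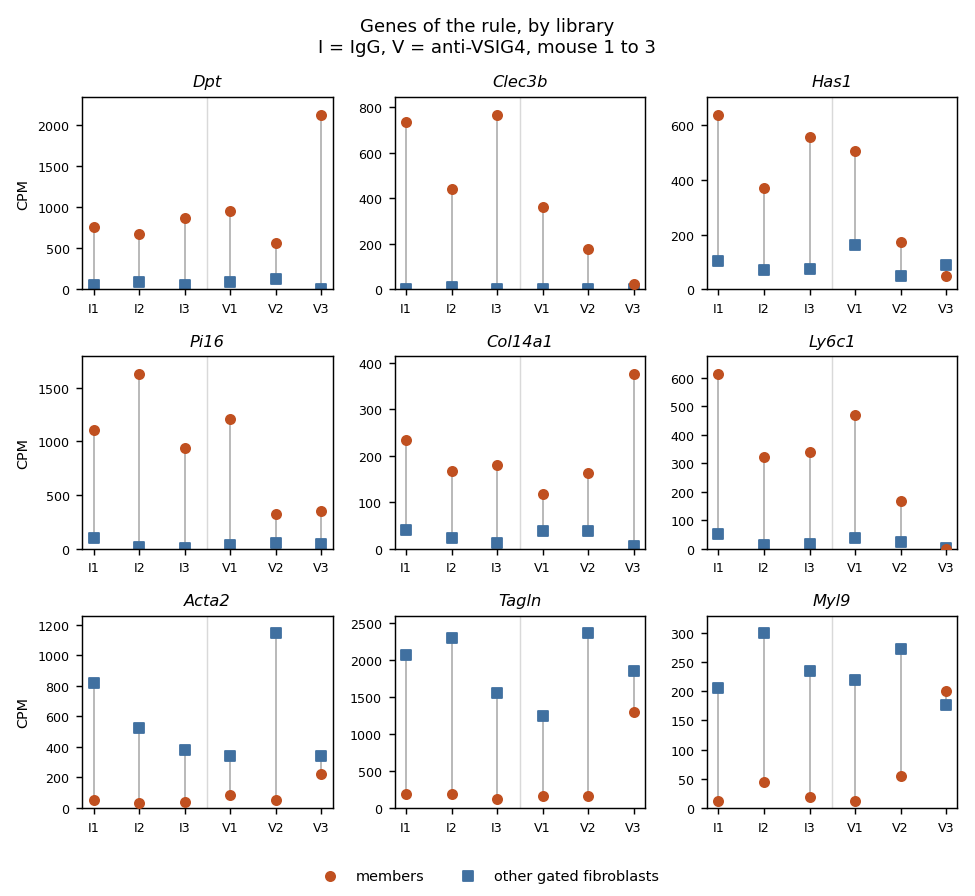
CPM of the 6 genes summed by the rule and of the 3 contractile genes, in the members (circles) and other gated fibroblasts (squares) of each library; every axis starts at 0. Clec3b was at 0 in the other gated fibroblasts of 4 libraries. The 4 members of anti-VSIG4 3 stood apart with 2130 CPM of Dpt, all of it from 1 cell, no Ly6c1 and 1303 CPM of Tagln.

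At the level of summed UMIs per library, Dpt stood at 758, 676 and 870 CPM in the members of IgG 1 to 3. In those of anti-VSIG4 1 to 3 it stood at 960, 571 and 2130 CPM, the last from 1 of 4 members. Pi16 stood at 1105, 1628 and 943 CPM and at 1206, 328 and 351 CPM. Clec3b stood at 733, 441 and 766 CPM and at 363, 179 and 25.1 CPM, the only gene of the 6 whose treatment groups did not overlap. Has1 stood at 638, 369 and 555 CPM and at 504, 174 and 50.1 CPM. That Clec3b, Dpt and Has1 are lower after the antibody in fibroblasts as a whole was already known from earlier results of these data, so the values give no independent support.

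The label was then set against genes that the rule did not use. Counts were summed per library and cell kind, and the members were compared with the other gated fibroblasts of the same mouse by edgeR's quasi-likelihood test with the library as block. Of 3584 genes tested, 109 (3.04%) were called at a Benjamini-Hochberg adjusted p under 0.05, 73 (2.04%) higher and 36 (1.0%) lower in members, and the median log2 change of all genes was -0.01. The members were chosen from the same counts, so genes that go with the rule genes from cell to cell were bound to differ, and the values describe what else these cells express. The number called was 58 without IgG 1 (43 higher and 15 lower), 75 without IgG 2 (48 higher) and 46 without IgG 3 (30 higher and 16 lower), and 149 without anti-VSIG4 3. Members were higher in all 6 libraries for 3.52% of the genes tested and lower in all 6 for 5.36%. None of the 109 genes had the opposite direction in an alternative that tested it, of which the narrowest tested 94 of them.

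**Figure D2:**
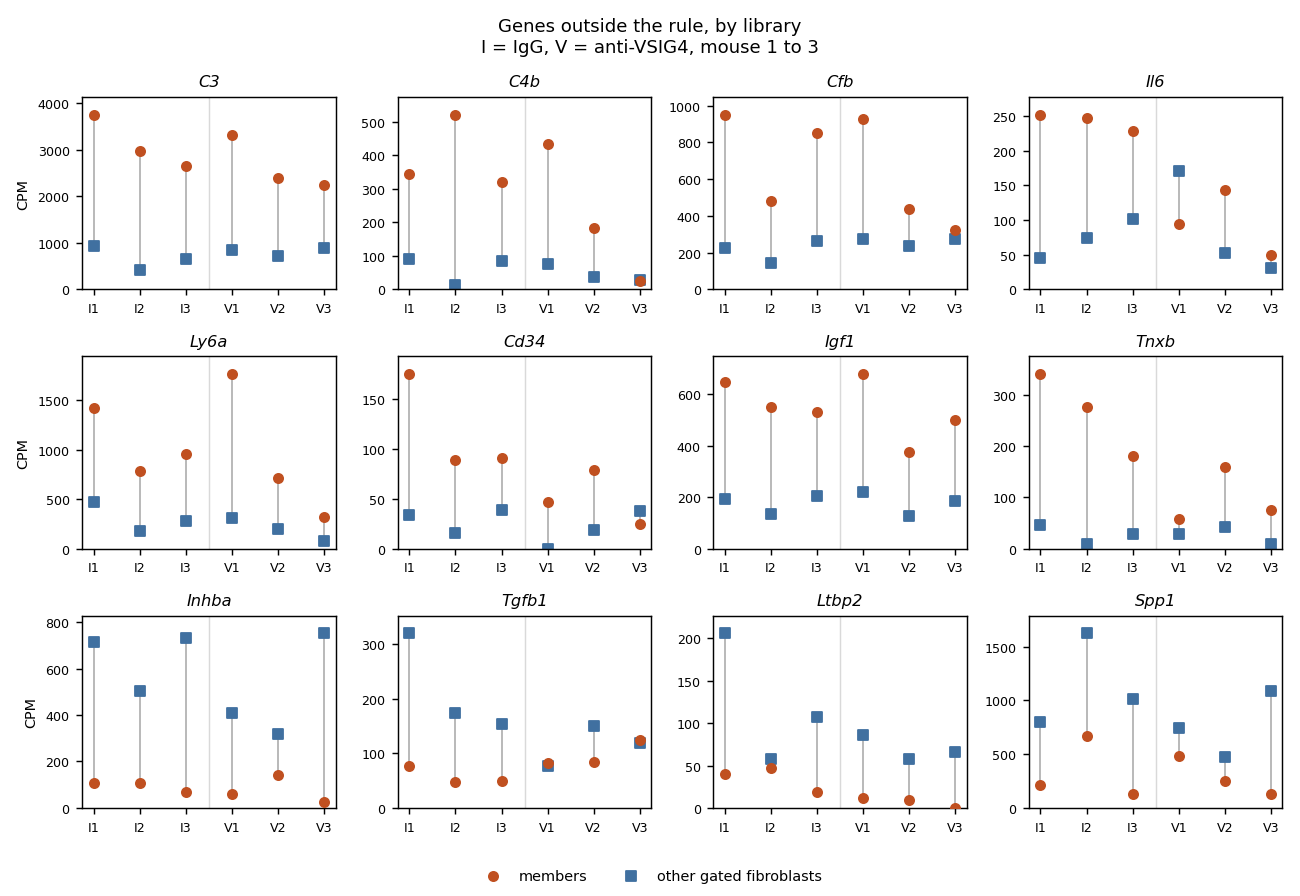
CPM of 12 genes outside the rule in the members (circles) and other gated fibroblasts (squares) of each library; every axis starts at 0. C3, Ly6a, Igf1 and Tnxb were higher in the members of all 6 libraries, Inhba, Ltbp2 and Spp1 lower in all 6, and Tgfb1 lower in 4 of 6.

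Genes of universal fibroblasts were higher in the members. Of 13 tested genes of a 20-gene list that leaves out the rule genes, 12 were higher and 7 were called, all higher, with a median log2 change of 0.95. Ly6a, which encodes the stem-cell antigen Sca-1, stood at 1423, 786 and 955 CPM in the members of IgG 1 to 3 and at 1768, 715 and 326 CPM in those of anti-VSIG4 1 to 3, against 81.8 to 475 CPM in the other gated fibroblasts. Members were higher in every library, by 1.99 ± 0.17 (SE) on the log2 scale (edgeR adjusted p = 6.94e-07). Cd34, a surface sialomucin of progenitor cells, was higher by 1.86 ± 0.34 (edgeR adjusted p = 0.00374) and in 5 of 6 libraries. Ackr3, a scavenging receptor for CXCL12, was higher by 2.17 ± 0.40 (edgeR adjusted p = 0.00444), also in 5 of 6 libraries, and its adjusted p reached 0.0802 in the alternatives. Reads of Ly6a could be shared with its close Ly6 relatives.

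Matrix genes of loose connective tissue were higher in the members as well. Tnxb, which encodes tenascin-X, a protein that spaces collagen fibrils, stood at 341, 277 and 180 CPM in the members of IgG 1 to 3 and at 58.6, 159 and 75.2 CPM in those of anti-VSIG4 1 to 3, against 9.44 to 45.8 CPM in the other gated fibroblasts. Its members were higher in 6 of 6 libraries, by 2.79 ± 0.32 on the log2 scale (edgeR adjusted p = 3.69e-05). Of the 16 tested genes for proteoglycans and elastic fibres, 10 were higher and 6 were called, all higher (Tnxb, Ogn, Fbln1, Lum, Mfap5 and Mfap2), with a median log2 change of 0.81. Ogn, a small leucine-rich proteoglycan, averaged 125 ± 77.1 CPM (SD, n = 6 libraries) in members and 20.3 ± 11.9 CPM in the others. Smoc2, a calcium-binding matrix protein, averaged 91.4 ± 20.7 and 16.6 ± 22.3 CPM. The call for Lum was lost in an alternative (edgeR adjusted p up to 0.727), as was that for Mfap5 (up to 0.136). Igf1, the growth factor, was higher in all 6 libraries, at 377 to 679 CPM against 127 to 219 CPM, with no overlap (1.67 ± 0.18 on the log2 scale, edgeR adjusted p = 7.85e-06).

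Collagens did not follow this pattern. Of 10 collagen genes tested outside the gate, 5 were higher and 5 lower, 1 was called, and the median log2 change was -0.08. The called gene was Col12a1, a fibril-associated collagen of dense matrix, which was lower in the members of 6 of 6 libraries (-1.27 ± 0.18, edgeR adjusted p = 0.000255). Of 9 basement membrane genes none was called.

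Complement genes were higher in the members as a group. Of 9 tested, 7 were higher and 5 were called, all higher, with a median log2 change of 0.91. C3, the component on which all complement routes converge, stood at 3756, 2974 and 2642 CPM in the members of IgG 1 to 3 and at 3314, 2403 and 2255 CPM in those of anti-VSIG4 1 to 3. In the other gated fibroblasts it stood between 422 and 927 CPM, below every value of the members, and the log2 change was 2.02 ± 0.18 (edgeR adjusted p = 6.94e-07). Cfb, a protease of the alternative pathway convertase, was higher in 6 of 6 libraries (661 ± 278 against 236 ± 50.9 CPM, edgeR adjusted p = 0.000431), as was Serping1, the C1 inhibitor (1327 ± 188 against 750.1 ± 219 CPM, edgeR adjusted p = 0.00558). C4b was higher in 5 of 6 libraries (305 ± 178 against 55.1 ± 32.8 CPM, edgeR adjusted p = 0.00515), and reads of its near-identical neighbour C4a could be counted with it. C1ra, a protease of the C1 complex, was higher in 5 of 6 libraries, at a log2 change of 1.37 ± 0.32 (edgeR adjusted p = 0.0314). Serping1 reached an adjusted p of 0.0525 in the alternatives.

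Cytokines were less uniform. Of 17 tested cytokine and chemokine ligands, 14 were higher and 3 were called, with a median log2 change of 0.57. Il6, the cytokine that defines inflammatory fibroblasts in this tumour, stood at 252, 247 and 229 CPM in the members of IgG 1 to 3 and at 93.7, 144 and 50.1 CPM in those of anti-VSIG4 1 to 3. In the other gated fibroblasts the values were 45.8, 74.0, 102, 171, 52.1 and 31.5 CPM, so that members were higher in 5 of 6 libraries (1.32 ± 0.30 on the log2 scale, edgeR adjusted p = 0.0202, up to 0.104 in the alternatives). The order was reversed in anti-VSIG4 1. Cxcl5, a neutrophil attractant, and Cxcl10, a T cell attractant, were the other called ligands, at log2 changes of 2.04 ± 0.45 and 1.20 ± 0.25 (edgeR adjusted p = 0.0290 and 0.00832, and up to 0.164 and 0.142 in the alternatives). Ccl7 (977 ± 552 against 341 ± 122 CPM), Cxcl1 (1313 ± 671 against 662 ± 332 CPM), Ccl2 (1018 ± 623 against 547 ± 301 CPM) and Cxcl12 did not pass, with edgeR adjusted p of 0.0989, 0.336, 0.429 and 0.291. Pdgfra, a receptor often used to mark inflammatory fibroblasts, stood at 67.3 CPM in members and 70.3 CPM in the others and was not called (log2 change 0.21 ± 0.30, edgeR adjusted p = 0.863).

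An inflammatory fibroblast list that leaves out the rule genes overlaps the groups above. Of its 18 tested genes 16 were higher and 5 were called (C3, Il6 and Ogn, already given, with Plpp3 and Svep1), with a median log2 change of 0.95. Outside the rule, the members were thus marked by complement, Ly6a and loose-matrix genes, with Il6, Cxcl5 and Cxcl10 called among the ligands and Ccl2, Ccl7, Cxcl1 and Cxcl12 not.

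Serpina3n, which encodes a secreted serine protease inhibitor of the acute phase, was another gene called higher (203 ± 91.5 against 53.6 ± 40.8 CPM, log2 change 2.03 ± 0.34, edgeR adjusted p = 0.00299). The 250 bases upstream of the RefSeq start sites (build GRCm38.p6) of Il6 (chr5:30012864-30013113, plus strand), Serpina3n (chr12:104406458-104406707, plus strand) and Cxcl10 (chr5:92348890-92349139, minus strand) are shown because these called genes hold a match to 1 of 2 motifs of inflammatory transcription factors. Capitals mark the match to the letters searched. Elements spelled otherwise were neither marked nor counted, so an unmarked stretch, as in Cxcl10, may still hold a kB element. In the first 2 it is a kB element, bound by NF-kB and searched as GGG, any 2 bases and TTTCC, and in the third an interferon-stimulated response element, searched as TTTC, any 2 bases and TTTC and found on the opposite strand.
Il6: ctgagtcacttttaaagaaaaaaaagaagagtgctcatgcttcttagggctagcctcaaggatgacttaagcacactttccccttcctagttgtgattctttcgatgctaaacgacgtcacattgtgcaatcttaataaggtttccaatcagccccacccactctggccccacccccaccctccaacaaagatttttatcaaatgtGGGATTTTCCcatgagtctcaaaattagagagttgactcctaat
Serpina3n: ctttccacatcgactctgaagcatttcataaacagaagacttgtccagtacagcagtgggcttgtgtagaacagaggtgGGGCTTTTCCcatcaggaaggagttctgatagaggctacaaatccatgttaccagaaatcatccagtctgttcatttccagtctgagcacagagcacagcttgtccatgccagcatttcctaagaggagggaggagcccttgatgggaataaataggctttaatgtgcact
Cxcl10: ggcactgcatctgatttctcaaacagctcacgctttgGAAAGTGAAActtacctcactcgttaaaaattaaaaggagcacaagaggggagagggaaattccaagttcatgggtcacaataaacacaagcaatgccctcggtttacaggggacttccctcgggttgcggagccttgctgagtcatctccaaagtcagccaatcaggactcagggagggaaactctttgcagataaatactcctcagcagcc

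The match ends 35 bases before the start site in Il6, 162 in Serpina3n and 204 in Cxcl10. The promoters (250 bases before to 50 after the start) were searched on both strands. This spelling of the kB element was found in 4 of the 48 matched genes called higher (Il6, Sbsn, Serpina3n and Steap4) and in 0 of 26 called lower. It was found in 2.18% of 2797 matched genes tested (1.89% of all 27025 promoters). The interferon-stimulated response element was found in 5 of 48, 1 of 26 (Spp1), 4.47% of genes tested and 3.99% of all promoters. The motifs do not overlap in the stretches shown, and a match is a description of the letters, not evidence of binding.

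Contractile and other myofibroblast genes were lower in the members. Of 17 tested genes of a myofibroblast list that leaves out the 3 rule genes, 15 were lower and 7 were called, all lower (Tpm1, Tgfb1, Col12a1, Tnc, Cnn2, Cald1 and Myh9), with a median log2 change of -0.88. Inhba, which encodes the activin A subunit, stood at 109, 107 and 70.2 CPM in the members of IgG 1 to 3 and at 58.6, 144 and 25.1 CPM in those of anti-VSIG4 1 to 3, against 318 to 752 CPM in the other gated fibroblasts. Its groups did not overlap and the log2 change was -2.50 ± 0.29 (edgeR adjusted p = 0.000106). Tgfb1 was lower by a log2 change of -1.29 ± 0.27 (77.4 ± 28.5 against 166 ± 83.0 CPM, edgeR adjusted p = 0.00844, up to 0.0866 in the alternatives), but only in 4 of 6 libraries, the exceptions being anti-VSIG4 1 and 3. These 2 genes belong to a list of TGF-beta response genes, of which 10 of 16 tested were lower and 3 were called, all lower, with a median log2 change of only -0.18. Ltbp2, the third of them, a microfibril protein of the latent TGF-beta binding protein family, was lower in 6 of 6 (-1.88 ± 0.36, edgeR adjusted p = 0.00444, up to 0.0543). Postn, often used as a myofibroblast gene, was not called (170 against 161 CPM, edgeR adjusted p = 0.951).

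Of 19 tested genes for matrix proteases and their inhibitors, 14 were higher and 5 lower, with a median log2 change of 0.25, and the calls went both ways, 2 higher and 3 lower. The protease inhibitors Timp1 and Timp3 and the membrane protease Mmp14 were called lower, whereas Adamts2 and Adamts5, which process procollagen and cut proteoglycans, were called higher. Timp1 averaged 2615 ± 801 CPM in members and 5531 ± 2217 CPM in the others (-1.01 ± 0.14, edgeR adjusted p = 0.000255). Spp1, which encodes osteopontin, averaged 311 ± 219 and 957 ± 392 CPM and was lower in 6 of 6 libraries (-1.65 ± 0.29, edgeR adjusted p = 0.00596, up to 0.0690). Of 14 glycolysis genes 13 were lower and 2 were called (Pgk1 and Pkm), with a median log2 change of -0.48, and of 11 hypoxia genes 9 were lower and none was called.

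Several response programmes leaned towards the members with few or no single genes called. All 13 tested class I antigen-presentation genes were higher, none was called, and their median log2 change was 0.49. All 8 tested type I interferon genes were higher and 1, Ifi27l2a, was called, with a median of 0.58, although Isg15 itself differed little (659 against 615 CPM, edgeR adjusted p = 0.928). Of 23 immediate early and stress genes 22 were higher and none was called (median 0.33), and of 17 NF-kB response genes 14 were higher and none was called (median 0.32). Of 7 class II genes 2 were higher and none was called (median -0.10).

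**Figure D3:**
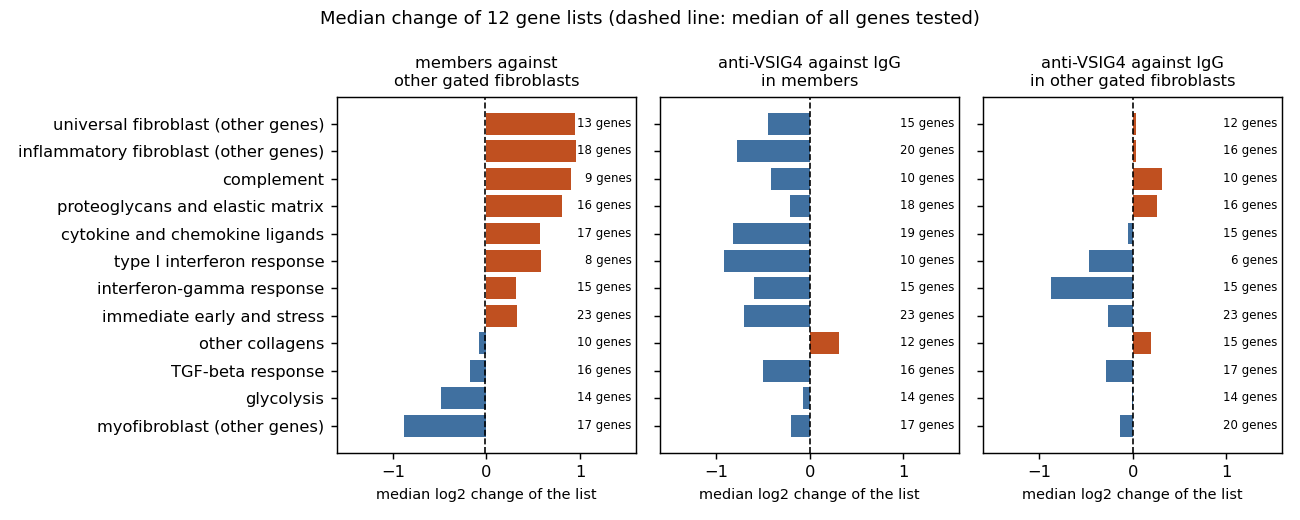
Median log2 change of 12 gene lists, with the number of genes tested in each, for members against other gated fibroblasts (left) and for anti-VSIG4 against IgG in the members (middle) and in the other gated fibroblasts (right); the dashed line is the median of all genes tested. The universal, inflammatory and complement lists were above 0.90 in the left panel and below 0 in the middle panel, while the myofibroblast list stood at -0.88 on the left.

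Markers of other cell types were found in both kinds, and at least 1 UMI of a macrophage marker was present in 206 of the 215 members and of a neutrophil marker in 207. All 12 general fibroblast markers were detected in members. Summed over the list, the 10 macrophage markers gave 656 to 3273 CPM in the members of the IgG libraries and 1428 to 3246 CPM in those of the anti-VSIG4 libraries, and the 7 neutrophil markers 399.7 to 1929 CPM and 1137 to 4556 CPM. The 13 mesothelial markers gave 280 to 420 CPM and 58.6 to 2431 CPM, the highest value in anti-VSIG4 3, against 19.0 to 264 CPM in the other gated fibroblasts. The 10 pericyte and smooth muscle markers gave 35.1 to 693 CPM in members and 552 to 1115 CPM in the others. The part of these cells or of free RNA in the comparison was not tested. Without cells holding 2 or more mesothelial UMIs 94 genes were called, 77 of them among the 109, of which 94 could be tested there. That setting does not address macrophage or neutrophil markers.

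Within the members, cells were described by whether they held a UMI of Pi16 or of Has1, in libraries with at least 10 members on either side. This is a description of cells already chosen on these genes, and the depth of the cells on either side was not matched. In the 4 libraries for Pi16 (IgG 1 to 3 and anti-VSIG4 2), Pi16-holding members had higher Igf1 (765 ± 212 against 272 ± 75.7 CPM), Mfap5 (958 ± 313 against 401 ± 111 CPM) and Col1a1 (12063 ± 3040 against 6902 ± 2011 CPM) in 4 of 4. They had lower Inhba (53.4 ± 31.7 against 157 ± 35.0 CPM) and lower Cxcl13, a B cell attractant (8.97 ± 11.1 against 186 ± 183 CPM), in 4 of 4. Il6 was similar in both (209 ± 117 and 208 ± 37.2 CPM).

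In the 3 libraries for Has1 (IgG 1, IgG 3 and anti-VSIG4 2), Has1-holding members had higher Il6 (266 ± 32.1 against 73.7 ± 39.5 CPM), Ccl7 (1314 ± 446 against 381 ± 230 CPM), Ccl2 (1327 ± 540 against 607 ± 293 CPM) and Cxcl1 (1841 ± 740 against 1004 ± 575 CPM) in 3 of 3. They had lower C4b (236 ± 161 against 341 ± 21.9 CPM) and Lum (212 ± 21.3 against 340.2 ± 49.9 CPM) in 3 of 3. Not every matrix or cytokine gene followed this order: Tnxb was higher with Has1 in 3 of 3 libraries (260.0 ± 110.2 against 127 ± 38.9 CPM), and Cxcl12 was higher with Pi16 in 3 of 4. The genes were not mutually exclusive: 71 members held both, 67 Has1 without Pi16, 44 Pi16 without Has1 and 33 neither.

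The second question was whether the members differed between anti-VSIG4 and IgG. They made up 72.2, 43.1 and 34.0% of gated fibroblasts in IgG 1 to 3 and 46.7, 32.2 and 14.8% in anti-VSIG4 1 to 3. The groups overlapped, and the means of 49.7 ± 19.99% and 31.2 ± 15.9% (SD, n = 3 mice each) did not differ beyond their spread (exact two-sided permutation test, p = 0.4, where the smallest possible p is 0.1). The difference of -18.5 percentage points depended on single libraries: it was -10.3 without anti-VSIG4 3 (exact permutation p = 0.8), -7.27 without IgG 1 and -26.4 without IgG 3. Without anti-VSIG4 1 it was -26.2 and the groups did not overlap (exact permutation p = 0.2, the smallest possible with 1 library left out). After each cell was thinned to 1000 UMIs the means were 38.3 and 25.7% (exact permutation p = 0.6). As a share of all cells in the library, members averaged 0.674 ± 0.515% and 0.268 ± 0.289% (exact permutation p = 0.3). Among the 3 libraries with few nucleus-like cells the share was 72.2% in the IgG library and 39.4% on average in 2 anti-VSIG4 libraries, and among the 3 with many it was 38.5% on average and 14.8%. A share of gated cells cannot separate fewer members from a lower level of the rule genes per cell.

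**Figure D4:**
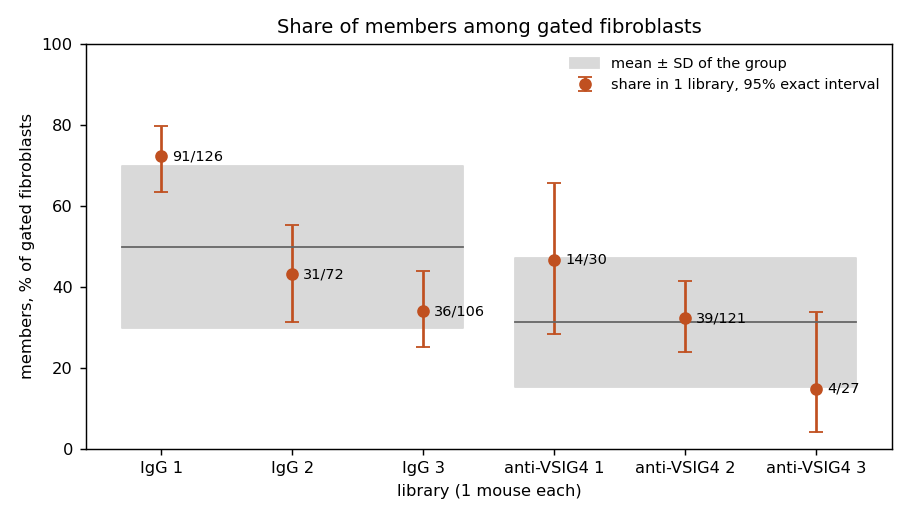
Members as a percentage of gated fibroblasts in each library (points, with 95% exact binomial intervals that cover counting error only, and cell numbers beside them) and the mean ± SD of each group (line and band). The IgG libraries spanned 34.0 to 72.2% and the anti-VSIG4 libraries 14.8 to 46.7%, so the groups overlapped.

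No gene was called between treatments in the members: edgeR called 0 of 3234 genes (0.0%), with 194 at an unadjusted p under 0.05 (137 lower and 57 higher after the antibody) and a smallest adjusted p of 0.487. DESeq2 also called 0. With 215 cells in 6 mice the fit had little power for small changes. In simulated counts for this comparison (3272 genes) 11.6% of genes changed 2-fold and 78.7% of genes changed 4-fold were called. The simulation gave all genes the same dispersion, the spread between libraries beyond counting error, so recovery in the data may be lower. Without anti-VSIG4 3 edgeR again called 0, as it did without nucleus-like cells, which among members were found in IgG libraries only. Without the filter on low counts it called 5 genes higher and 34 lower, among them Lif, Csf3, Nupr1, Ifit1 and Isg15, and those calls depend on that choice. The values below are therefore given as values that did not pass.

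Cytokine and interferon genes were among those with the smallest p-values. Lif, an IL-6 family cytokine, stood at 97.3, 131 and 131 CPM in the members of IgG 1 to 3 and at 11.7, 24.8 and 0 CPM in those of anti-VSIG4 1 to 3. The groups did not overlap (log2 change -2.78 ± 0.57, edgeR adjusted p = 0.487). In the other gated fibroblasts of the same mice Lif stood at 57.2, 151 and 65.3 CPM and at 152, 33.0 and 107 CPM, and the groups overlapped. Csf3, which encodes the neutrophil growth factor G-CSF, stood at 81.7, 232 and 110 CPM and at 23.4, 24.8 and 0 CPM in members (-2.78 ± 0.65, edgeR adjusted p = 0.487). Without anti-VSIG4 3, the changes of Lif and Csf3 were -2.56 and -2.54 (edgeR adjusted p = 0.397 for both).

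Il6 was among the genes whose members did not overlap between treatments, at 229 to 252 CPM after IgG and 50.1 to 144 CPM after anti-VSIG4 (-1.22 ± 0.39, edgeR adjusted p = 0.551). Ccl2, the main attractant of monocytes, stood at 1067, 1628 and 1785 CPM and at 890, 611 and 125 CPM (-1.46 ± 0.50, edgeR adjusted p = 0.579). Without anti-VSIG4 3 its change was -1.06 and that of Il6 -1.02. The interferon-induced Ifit1 stood at 127, 44.7 and 137 CPM and at 11.7, 9.93 and 25.1 CPM (-3.05 ± 0.71, edgeR adjusted p = 0.487), with a log2 change of -3.29 without anti-VSIG4 3. All 5 of these genes were below the IgG range in every anti-VSIG4 library. Such separation is common here, since 428 of the 3234 genes tested (13.2%) had groups that did not overlap, 6.68% with the antibody lower and 6.56% with it higher.

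**Figure D5:**
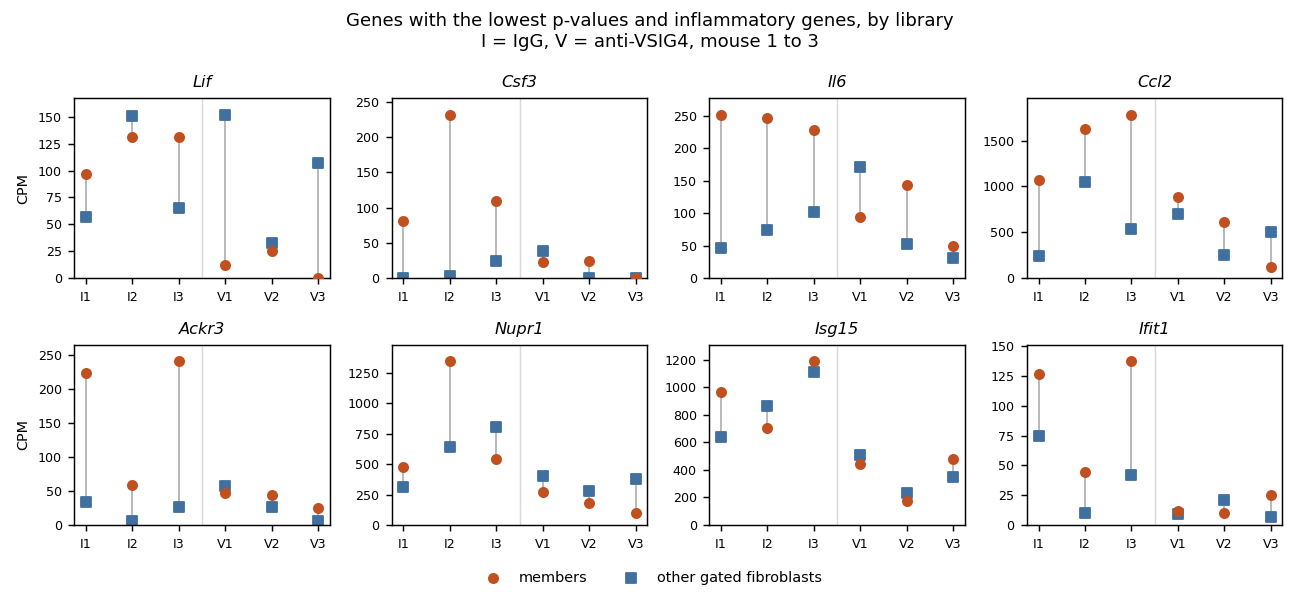
CPM of 8 genes in the members (circles) and other gated fibroblasts (squares) of each library, with every axis starting at 0. The genes were taken from those with the lowest p-values for the treatment and from inflammatory genes. In the members all 8 were lower in each anti-VSIG4 library than in each IgG library, while none was called by edgeR. This separation follows in part from the choice of genes, and 6.68% of all genes tested separated in this direction.

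The 5 complement genes called between kinds had overlapping treatment groups in the members. C3 stood at 3124 ± 572 CPM after IgG and 2657 ± 574 CPM after anti-VSIG4 (-0.28 ± 0.28, edgeR adjusted p = 0.940), with a log2 change of -0.18 without anti-VSIG4 3. Of 10 complement genes tested, 9 were lower after the antibody, none was called, and the median log2 change was -0.41, against 0.32 with 8 of 10 higher in the other gated fibroblasts. In the test of the difference between the kinds, all 11 complement genes tested had a lower change in members and none was called. Ly6a had a log2 change of -0.19 ± 0.49 (edgeR adjusted p = 0.966), which was 0.17 without anti-VSIG4 3, 0.04 without IgG 1 and -1.02 without anti-VSIG4 1. Saa3, an acute-phase protein, stood at 15635, 1430 and 5112 CPM in the members of anti-VSIG4 1 to 3, and its log2 change of 0.37 ± 0.68 (edgeR adjusted p = 0.966) was -0.91 without anti-VSIG4 1.

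By list, 16 of 20 inflammatory fibroblast genes were lower in the members after anti-VSIG4, with a median log2 change of -0.78, against 0.00 for all genes tested, and 7 of the 20 had groups that did not overlap, all lower (6.68% of all genes tested). Of 19 ligands 14 were lower (median -0.82), of 10 type I interferon genes all 10 (median -0.92), of 15 interferon-gamma genes 12 (median -0.59), and of 23 immediate early and stress genes 22 (median -0.70). No gene of these lists was called. Lower inflammatory genes after the antibody in fibroblasts as a whole were known from earlier results of these data, so these counts are not independent of them. With each library left out in turn the medians of these 5 lists stayed below 0: the inflammatory list ran from -1.19 to -0.49, the type I interferon list from -1.50 to -0.53, the immediate early list from -0.87 to -0.38 and the interferon-gamma list from -0.77 to -0.15, the last without anti-VSIG4 2. Libraries with few nucleus-like cells gave medians of -0.57, -1.39 and -0.25 for the inflammatory, type I interferon and immediate early lists. Those with many, where the antibody side is the 4 cells of anti-VSIG4 3, gave -1.46, -0.65 and -0.99. Lower medians were not limited to inflammatory lists. Over all 6 libraries the universal fibroblast list stood at -0.45 (11 of 15 genes lower) and TGF-beta response genes at -0.50 (12 of 16). Hyaluronan genes stood at -1.41 (3 of 5) and basement membrane genes at -0.35 (7 of 9). Medians above 0 included those of other collagens at 0.31 (9 of 12 higher) and class II genes at 0.41 (4 of 7). The macrophage markers were higher after the antibody in 7 of 7 genes tested in the members (median 0.59). Their median was -0.17 in the libraries with few nucleus-like cells alone and 0.74 in those with many. The neutrophil markers were higher in 4 of 5 (median 0.98), with medians of 0.51 and 0.65 in the same libraries. Summed levels are given above, and the part of both marker lists in the changes of this section was not tested.

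In the other gated fibroblasts edgeR called 0 of 3841 genes (0.0%), 156 had an unadjusted p below 0.05, and 3 were called by DESeq2. Groups did not overlap in 8.28% of genes, 3.1% with the antibody higher and 5.18% with it lower. Both comparisons use the same 6 mice. Side by side, the inflammatory list had a median of -0.78 in members and 0.03 in the others, the ligands -0.82 and -0.05, the type I interferon list -0.92 and -0.47, and the interferon-gamma list -0.59 and -0.87. The immediate early and stress list had medians of -0.70 and -0.27, with 21 of 23 genes lower in the others too. The class II genes had medians of 0.41 and 1.23. In the other gated fibroblasts the macrophage markers were also higher in 8 of 8 (median 1.31).

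The difference of the treatment effect between the kinds was tested in 1 fit over all 12 sums, which called 1 of 4714 genes (0.0212%), lower in the members. The gene was Ptx3, which encodes pentraxin 3, a soluble pattern recognition protein that binds complement. It stood at 132, 143 and 275 CPM in the members of IgG 1 to 3 and at 176, 39.7 and 0 CPM in those of anti-VSIG4 1 to 3, against 11.4, 6.44 and 18.3 CPM and 114, 36.5 and 3.15 CPM in the other gated fibroblasts. The difference was -3.67 ± 0.68 on the log2 scale (edgeR adjusted p = 0.0115). The call was lost with DESeq2 (adjusted p = 0.137) and, in edgeR, without IgG 2 (adjusted p = 0.052), IgG 3 (adjusted p = 0.384) or the 5% of gated cells with most UMIs (adjusted p = 0.0981). The number of genes called moved with the libraries, to 3 higher and 7 lower without IgG 1, 1 and 5 without anti-VSIG4 1, and 3 and 18 without anti-VSIG4 2. For Lif, Il6, Ccl2 and Isg15 the difference between the kinds did not pass (-2.53, -1.23, -1.36 and -0.34, with edgeR adjusted p of 0.632, 0.997, 0.997 and 0.997), so lower levels in 1 kind were not shown to be particular to it.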

How the data were processed

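The 6 deposited matrices gave UMI counts per gene and cell. Per the submitters' processing notes the authors used STAR, PISA and Seurat, and the genome build is not given in the sources used here. Counts were used as deposited, with gene spans for the nucleus-like measure from GENCODE matched by symbol, no further cell filter and no doublet removal. Cell names are serial numbers, so the 11691 names found in more than 1 library say nothing of shared cells.

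Members were gated on raw UMIs and counts were summed per library and kind. The mouse is the replicate. Sums were tested with edgeR 4.0.16 (TMM, filterByExpr, robust quasi-likelihood fit, Benjamini-Hochberg adjustment over all genes tested), with DESeq2 1.42.0 (independent filtering off) as an alternative. The 19 genes of the gate and rule were left out of the tests between kinds. CPM is relative to a library's summed UMIs, and SE is the log2 change over the root of F. The fits were tested on simulated data. The labels do not say that replicate numbers pair the mice, so no pairing was used in the main fits. Same-number correlations were 0.19, -0.0096 and 0.13 and different-number ones ran from -0.18 to 0.070. With 3 mice per group these values cannot settle whether mice were paired. Strand use in counting is not given, so antisense reads may be included.

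Members, gene lists and naming rules were chosen with earlier results of these data known. Genes were named from the rule genes, the up to 15 largest called changes per direction with at least 50 CPM that held in all 6 libraries, the 10 smallest p for the treatment, up to 4 genes per list by smallest p and a set list. Other called members of a list, genes holding a motif and Cxcl13 were named after their values were seen. One gene that the rule names is not reported here.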

Additional observations from a re-analysis of the deposited data

Results flagged for a closer look

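Ptx3 was the only gene whose response to the antibody differed between the members and the other gated fibroblasts by a test of the difference itself, with a log2 difference of -3.67 (edgeR adjusted p = 0.0115). In the members it was below the IgG range in anti-VSIG4 2 and 3 but not in anti-VSIG4 1, at 176 CPM, while in the other gated fibroblasts it was higher in anti-VSIG4 1 and 2 than in any IgG library. DESeq2 did not call it (adjusted p = 0.137).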

How the results depend on the processing

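Of the values given for the comparisons, 104 under an alternative were counted as similar to the reported one and 39 as moved. For the share of members, similar means only that the direction was kept. That difference of -18.5 percentage points ran from -26.4 to -7.27 with 1 library left out. Members against other gated fibroblasts gave 122 genes higher and 79 lower with no filter on low counts, and 30 to 98 higher and 15 to 51 lower with 1 library left out. Without the replicate block, here the library that both kinds share, it gave 41 and 19. The treatment called, in the members, 5 genes higher and 34 lower with no filter, 1 and 4 in the libraries with few nucleus-like cells alone, and 19 and 50 in those with many. The last 2 settings were chosen after seeing the data and leave 1 library on a side, which is assumed to vary like the others. In the other gated fibroblasts it called 11 and 20 with no filter, 1 and 2 with DESeq2, 5 and 7 with few, 19 and 16 with many, 1 lower without the 5% of cells with most UMIs, and 0 to 1 either way with 1 library left out. A block on replicate numbers, which the labels do not say pair the mice, gave 0 calls in both kinds. The difference between kinds called 1 higher and 4 lower with no filter, 0 lower with DESeq2, and 0 to 3 higher and 0 to 18 lower with 1 library left out.

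Of single genes, 1005 values kept direction and side of the threshold, 50 lost their call, 32 gained one and 31 reversed. The reversals were in genes with no call, not all with changes near 0, as Saa3 (0.37) and Il1r1 (-0.29) below show. Their cause was not tested. For the treatment in members, Cxcl12 (0.01) was -1.52 in libraries with many nucleus-like cells, -0.061 with a margin of 2 UMIs, -0.24 with no filter, -0.031 with the rule without Ly6c1, -0.080 without nucleus-like cells, -0.30 without the deepest 5% of cells and -1.23 to 0.51 with 1 library left out. Il1r1 (-0.29) was 0.17 with library kind as covariate, 0.80 with many and -0.99 to 0.18 with 1 library left out. Saa3 (0.37) was -0.35 with many, -0.24 with the replicate block, -1.06 without the deepest 5% and -0.91 to 0.82 with 1 library left out. Ly6a ran from -1.02 to 0.17 with 1 library left out, Postn was 0.94 with many and Col1a1 -0.018 with few. Between kinds, Isg15 (0.08) was -0.063 with the rule without Ly6c1, -0.045 without cells with mesothelial UMIs, -0.050 without the deepest 5% and -0.060 to 0.16 with 1 library left out. Postn (-0.10) was 0.057 with no replicate block, 0.17 without cells with mesothelial UMIs, 0.30 without the deepest 5% and -0.39 to 0.18 with 1 library left out, and Pdgfra ran from -0.030 to 0.38.

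Depth limits what can be said: 4 members carry 1 of the 3 anti-VSIG4 libraries, 39905 UMIs in all, so levels there rest on few UMIs. In simulated counts with the same dispersion for all genes, 2-fold changes were called in 65.5% of genes between kinds (3618 genes). For the difference of treatment effects it was 4.44% (4705 genes). A lack of calls for the treatment thus does not show that levels were alike.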
